A study of Mus musculus with 6 samples.

Results

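The transcripts described here belong to the EGF receptor system and to Met, the receptor of hepatocyte growth factor (HGF), in mouse hepatocytes before and after partial hepatectomy (PHx), an operation that takes out most of the liver mass. The 10 genes were chosen by name: the receptors Egfr, Erbb2, Erbb3 and Met, the ligands Tgfa, Hbegf, Areg, Btc and Egf, and the inhibitor Errfi1. All 10 were found among the 55450 genes of the count files, and 9 of them were tested, since Areg did not reach 10 counts in 3 libraries. RNA-Seq was performed on 6 libraries of total RNA, 3 from hepatocytes of undamaged liver (0 h) and 3 from hepatocytes isolated 48 hours after PHx. The mice were C57BL/6 animals in the labels, given there as 10 to 12 weeks old and kept on normal diet. The methods describe them as male, of the substrain C57BL/6J and slightly younger at surgery than the labels do, so the age is uncertain by some weeks. All 6 libraries carry the label PHx, and those of 0 h were taken as undamaged liver, before any regeneration. No sham-operated group was included here, so time after surgery and the response to lost tissue cannot be told apart. Hepatocytes were released by collagenase perfusion in 2 steps, and both groups went through this digestion before RNA was extracted. Each library comes from a hepatocyte preparation of its own, described as a biological replicate.

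EGFR (ERBB1) is a receptor tyrosine kinase of the ERBB family, which also holds ERBB2, ERBB3 and ERBB4. Its ligands are made as membrane-bound precursors that proteases of the ADAM family release, and a bound ligand joins receptors in pairs that phosphorylate each other and recruit adaptors of the RAS-ERK and PI3K pathways. ERBB2 binds no known ligand and ERBB3 has little kinase activity of its own, so both act mainly as partners, ERBB3 after binding a neuregulin. MET answers to HGF, which nonparenchymal liver cells supply as an inactive precursor, and EGFR and MET are the best known mitogen receptors of hepatocytes in liver regeneration.

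Depth was alike in both groups, with 31419443 to 36346220 reads counted on genes at 0 h and 31684152 to 33093006 at 48 hours. At this depth 3 counts, taken as the floor of detection, equal 0.0825 to 0.0955 CPM (reads on a gene per 1e6 reads on all genes), a limit that covers counting error only. Levels are given as CPM after scaling the libraries with edgeR's TMM factors, which were not applied to this floor. Of 17037 genes tested with edgeR's quasi-likelihood test, 21.4% were higher and 19.3% lower at 48 hours at an adjusted p under 0.05 (40.7% in either direction). The 10 hepatocyte markers, led by Alb, summed to 99371 to 116482 CPM at 0 h and 63405 to 74479 CPM at 48 hours, and 4 of them were lower. The 10 markers of sinusoidal endothelial cells summed to 232 to 360 CPM at 0 h and 168 to 185 CPM at 48 hours, with 9 lower. The 11 Kupffer cell markers summed to 82.6 to 124 CPM and 119 to 146 CPM, with 3 higher, and the 10 stellate cell markers to 76.7 to 124 CPM and 68.5 to 82.0 CPM, with 1 higher and 1 lower. The 9 cholangiocyte markers, of which Krt7, Epcam and Cftr had 3 counts or fewer in every library, summed to 35.3 to 63.3 CPM at 0 h and 47.1 to 58.7 CPM at 48 hours. The 9 neutrophil markers summed to at most 0.408 CPM at 0 h and to 0.653 to 1.06 CPM at 48 hours, with Retnlg and Mpo at 0, the 9 lymphocyte markers to 2.69 to 3.87 CPM and 2.64 to 3.94 CPM, with Ncr1 at 0, and the 6 mesothelial markers to 0.0322 to 0.238 CPM and 0.0839 to 0.400 CPM. In these bulk libraries, fewer cells of a type and less RNA per cell cannot be told apart.

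The promoters of 4 genes are shown because they hold the letters at the start sites of the most abundant receptor and ligand (Egfr and Tgfa), of the abundant inhibitor (Errfi1) and of the scarcest ligand at 0 h (Areg). Each sequence is the RefSeq window of GRCm38.p6 from 250 bases before to 50 bases after an annotated start, read 5′ to 3′ on the gene's strand. Capitals mark matches, on either strand, to TATAAA (the TATA box), TGACGTCA (the cAMP response element), GGGCGG (the GC box bound by Sp1) and TGANTCA (the AP-1 site). TGANTCA cannot match within TGACGTCA, where the gap between TGA and TCA is 1 base longer. Of 32851 promoter windows of the same length, 13.6% hold TATAAA, 1.79% TGACGTCA, 35.7% GGGCGG and 7.81% TGANTCA.
Areg (chr5:91139349-91139648, plus strand): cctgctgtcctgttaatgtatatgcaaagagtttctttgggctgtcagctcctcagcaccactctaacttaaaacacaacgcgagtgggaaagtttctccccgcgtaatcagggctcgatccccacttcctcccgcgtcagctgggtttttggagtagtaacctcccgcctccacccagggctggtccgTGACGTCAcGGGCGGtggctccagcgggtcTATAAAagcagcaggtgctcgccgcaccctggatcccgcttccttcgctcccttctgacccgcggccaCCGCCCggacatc
Errfi1 (downstream start, chr4:150854820-150855119, plus strand): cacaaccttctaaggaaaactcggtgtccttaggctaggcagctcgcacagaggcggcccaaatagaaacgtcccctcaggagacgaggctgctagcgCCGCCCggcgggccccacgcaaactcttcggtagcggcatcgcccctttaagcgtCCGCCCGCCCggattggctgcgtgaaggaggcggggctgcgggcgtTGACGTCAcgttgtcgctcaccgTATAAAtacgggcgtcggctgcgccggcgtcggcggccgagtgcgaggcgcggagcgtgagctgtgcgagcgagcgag
Tgfa (chr6:86194972-86195271, plus strand): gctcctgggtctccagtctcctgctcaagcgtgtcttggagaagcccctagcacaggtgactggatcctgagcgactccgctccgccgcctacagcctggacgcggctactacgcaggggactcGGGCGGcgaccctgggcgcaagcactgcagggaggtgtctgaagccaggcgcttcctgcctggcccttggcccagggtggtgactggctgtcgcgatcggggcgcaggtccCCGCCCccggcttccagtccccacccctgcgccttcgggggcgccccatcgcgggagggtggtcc
Egfr (chr11:16751953-16752252, plus strand): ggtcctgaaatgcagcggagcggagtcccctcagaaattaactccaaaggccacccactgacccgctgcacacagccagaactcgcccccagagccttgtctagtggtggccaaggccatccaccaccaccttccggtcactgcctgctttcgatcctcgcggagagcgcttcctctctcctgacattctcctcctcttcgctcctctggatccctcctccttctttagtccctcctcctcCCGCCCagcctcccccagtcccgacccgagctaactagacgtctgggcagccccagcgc
The Areg window holds TGACGTCA 61 bases and TATAAA 31 bases before the start, with GC boxes 52 bases before and 37 bases after it. The downstream Errfi1 start has the same pair of letters at nearly the same distances, TGACGTCA 51 bases and TATAAA 28 bases before the start, and 3 GC boxes farther upstream. Tgfa holds GC boxes 126 and 15 bases before its start, and Egfr a GC box 9 bases before its start. The windows of Erbb2, Btc, Egf (both starts) and the upstream start of Errfi1 hold none of the 4 motifs. The Met window holds 3 GC boxes and a TGANTCA match 54 bases before the start. Hbegf and Erbb3 are named only. A match describes these letters and was not tested as a binding site.

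To compare the genes with each other, CPM were divided by the length of each gene's merged exons in kilobases. On this per-length scale Errfi1, the cytoplasmic inhibitor of EGFR also called MIG6, was the most abundant of the 10 at 0 h, with 502 ± 59.1 CPM per kb (SD, n = 3), followed by Egfr with 162 ± 35.9 CPM per kb. Erbb3 followed with 50.4 ± 3.04 CPM per kb and Met with 22.6 ± 1.23 CPM per kb. All 3 of these receptors and Errfi1 thus stood above every ligand in every library. Tgfa, which encodes TGF-α, led the ligands with 6.21 ± 0.0623 CPM per kb, and Btc (betacellulin) reached 0.493 ± 0.102 CPM per kb. Hbegf (heparin-binding EGF-like growth factor) had 0.182 ± 0.0425, Erbb2 0.161 ± 0.0259, Egf 0.121 ± 0.0136 and Areg (amphiregulin) 0.00826 ± 0.0143 CPM per kb. Neighbours in this order did not overlap over the libraries at 0 h, except Hbegf and Erbb2.

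The first 7 places were the same at 48 hours. Errfi1 had 369 ± 20.1, Egfr 146 ± 5.99, Erbb3 24.5 ± 1.50 and Met 18.0 ± 1.89 CPM per kb (SD, n = 3). Tgfa had 7.21 ± 0.764, Btc 0.608 ± 0.0947 and Hbegf 0.251 ± 0.0472 CPM per kb, still far under the receptors other than Erbb2. Areg had 0.166 ± 0.0484, Egf 0.133 ± 0.0340 and Erbb2 0.106 ± 0.0229 CPM per kb. The ranges of Hbegf and Areg, of Areg and Egf, and of Egf and Erbb2 overlapped, so these neighbours in the order were not resolved, while Hbegf stood above Egf and Erbb2 in every library. Among the 17037 genes tested, ranked by the same per-length level, Errfi1 was number 90 at 0 h and 97 at 48 hours, Egfr number 243 and 208, and Erbb3 number 692 and 1239. Met moved from number 1423 to 1672 and Tgfa from 4315 to 3951, whereas Erbb2 was number 15503 and 16326. Hepatocytes of both groups therefore carried abundant Egfr and Errfi1 transcripts and few transcripts of Erbb2.

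**Figure D1:**
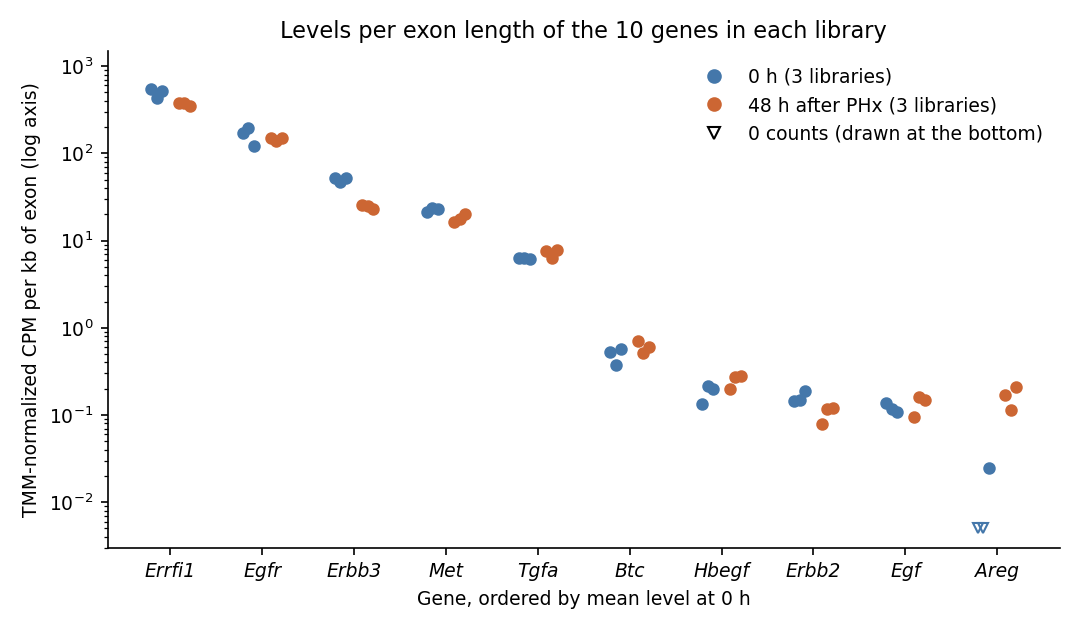
Per-length level of the 10 genes (CPM per kb of merged exons, log axis) in each library, with 0 h and 48 h libraries as points of separate colours and libraries without a count as open triangles at the bottom. Errfi1 and Egfr lie highest at both times (502 and 162 CPM per kb on average at 0 h), Tgfa is the highest ligand, and Areg had no counts in 2 libraries at 0 h.

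Of the 9 genes tested, none was called higher at 48 hours (with no filter on low counts, Areg was) and 3 were called lower (Erbb3, Errfi1 and Met), beside 21.4% of all genes higher and 19.3% lower. At an unadjusted p under 0.05 the counts were the same, 0 higher and 3 lower, and DESeq2 and limma-voom also called 0 higher. The number called lower was 1 to 2 when a library was left out, and 1 with library size as the only scaling. That scaling also called Tgfa higher. In 4 of the tested genes (Erbb2, Erbb3, Met and Errfi1) every 48 h library lay under every 0 h library, which held for 25% of all genes tested. Tgfa was the tested gene with every 48 h library above every 0 h library, a pattern of 27.8% of all genes. Egfr, Hbegf, Btc and Egf overlapped between the groups.

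Egfr (ENSMUSG00000020122.16, chr11:16752203-16918158 of GRCm38, plus strand) encodes the receptor shared by all 5 ligands described here. It had 1930.2, 2182 and 1387 CPM in the 0 h libraries of replicates 1, 2 and 3, and 1695, 1579 and 1699 CPM in those of 48 hours. The 48 h values lay within the range of the 0 h values, and the 0 h library of replicate 3 was the lowest of all 6. The group means were 1833 ± 406 and 1658 ± 67.9 CPM (SD, n = 3), and the log2 fold change of -0.15 (SE 0.179) did not pass edgeR's test (adjusted p = 0.552). Its 95% interval of -0.54 to 0.25 leaves room for changes in either direction. With library size as the only scaling the sign turned, to 0.05, beside a median of all genes of 0.20 on that scale.

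Erbb3 (ENSMUSG00000018166.8, chr10:128567523-128589652, minus strand), the neuregulin-binding partner receptor, fell after PHx. It had 315, 282 and 313 CPM at 0 h and 154, 150.4 and 137 CPM at 48 hours. The lowest library at 0 h was well above the highest at 48 hours. The mean was 303 ± 18.3 CPM at 0 h and 147 ± 8.995 CPM at 48 hours (SD, n = 3), 2.06-fold lower after PHx (log2 fold change -1.04, SE 0.116, edgeR adjusted p = 6.65e-05). The call was kept in all 15 alternative analyses, with log2 fold changes of -1.13 to -0.84. The summed hepatocyte markers, most of whose sum is Alb, were also lower at 48 hours (99371 to 116482 CPM against 63405 to 74479 CPM), although 6 of the 10 were not called in either direction, and their part in this difference was not tested.

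Erbb2 (ENSMUSG00000062312.5, chr11:98412470-98437716, plus strand), the partner without a ligand, was counted 22, 24 and 33 times at 0 h and 14, 22 and 22 times at 48 hours. These counts equal 0.749, 0.773 and 0.994 CPM at 0 h and 0.416, 0.615 and 0.628 CPM at 48 hours. The CPM ranges did not overlap, but the log2 fold change of -0.60 (SE 0.303) did not pass edgeR's test (adjusted p = 0.141). With so few reads its 95% interval ran from -1.27 to 0.07.

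Met (ENSMUSG00000009376.15, chr6:17463800-17573980, plus strand), the HGF receptor, had 163, 182 and 175 CPM at 0 h. At 48 hours it had 125, 137 and 154 CPM, each below all 0 h values. The mean fell from 174 ± 9.43 to 138 ± 14.5 CPM (SD, n = 3), a log2 fold change of -0.33 (SE 0.119, edgeR adjusted p = 0.0485). This call was at the threshold: it was lost without any of 5 libraries (adjusted p = 0.0640, 0.0775 and 0.106 without 0 h replicates 1, 2 and 3, and 0.144 and 0.131 without 48 h replicates 1 and 2). It was also lost with library size as the only scaling (adjusted p = 0.493) and with no filter on low counts (adjusted p = 0.0580). The direction was lower in all 15 alternatives, of which 7 kept the call.

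Errfi1 (ENSMUSG00000028967.10, chr4:150853919-150868892, plus strand) is a transcriptional target of EGFR-ERK signalling whose protein binds and silences the EGFR kinase. It had 1953, 1556 and 1881 CPM at 0 h and 1367, 1359 and 1238 CPM at 48 hours, with no overlap. The mean was 1797 ± 212 CPM and 1322 ± 72.1 CPM (SD, n = 3), a log2 fold change of -0.44 (SE 0.147, edgeR adjusted p = 0.0345). The call was lost without 0 h replicate 1 (adjusted p = 0.114), without 0 h replicate 3 (0.0986), without 48 h replicate 2 (0.0833) or without 48 h replicate 3 (0.100), and with library size as the only scaling (0.211). The lower direction was kept in all 15 alternatives and the call in 9.

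**Figure D2:**
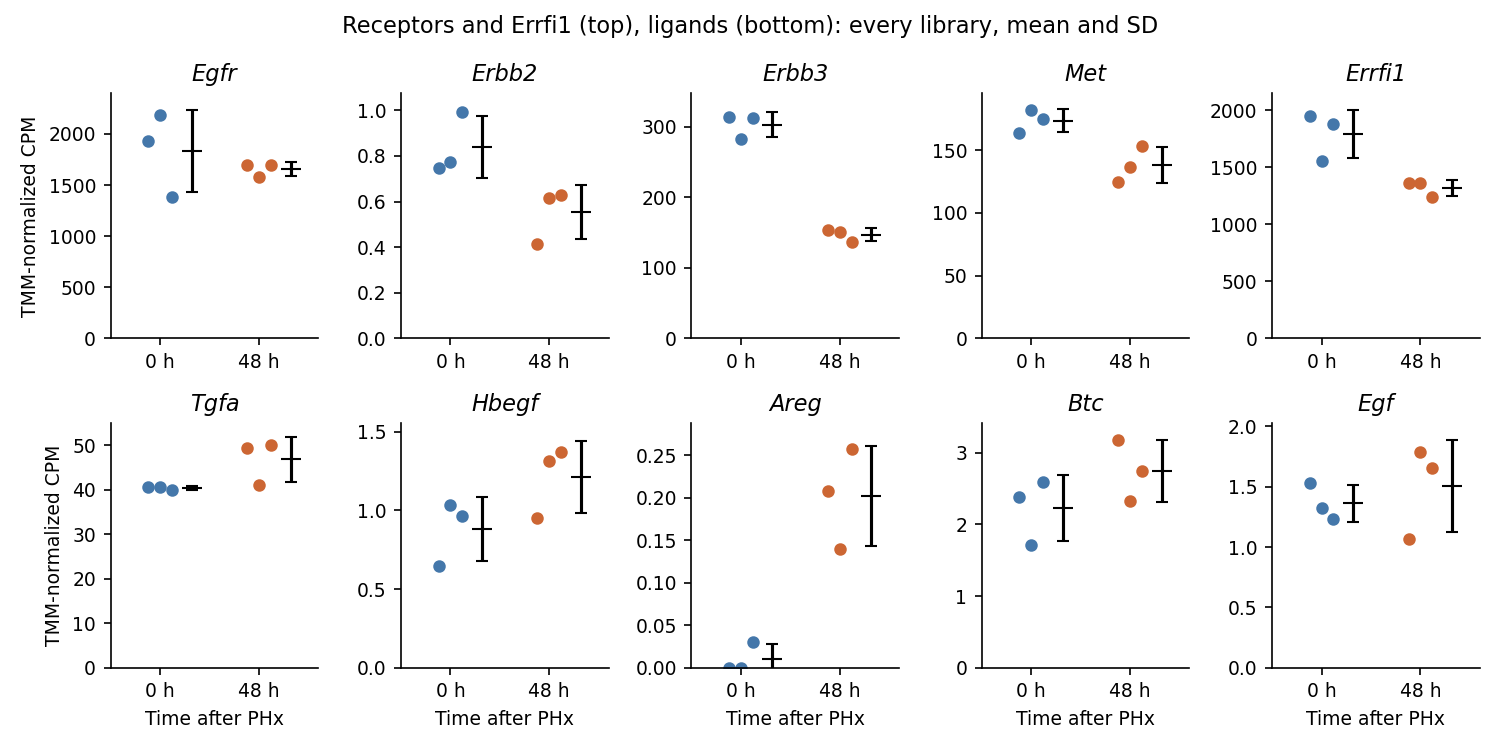
Level of each gene in every library (TMM-normalized CPM, linear axes from 0 that differ between panels), with points for libraries and, beside them, each group's mean and SD. Erbb3 separates the groups (303 against 147 CPM), Egfr overlaps, and Areg has 0, 0 and 1 counts at 0 h against 7, 5 and 9 at 48 hours.

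Among the ligands, Tgfa (ENSMUSG00000029999.14, chr6:86195223-86275719, plus strand) was counted 1194, 1256 and 1324 times at 0 h and 1659, 1468 and 1750 times at 48 hours. Its level was 40.6, 40.5 and 39.9 CPM at 0 h, with almost no spread. At 48 hours it was 49.3, 41.1 and 50.0 CPM, and replicate 2 lay only just above the 0 h libraries. The means of 40.3 ± 0.405 and 46.8 ± 4.96 CPM (SD, n = 3) gave a log2 fold change of 0.21 (SE 0.106) that did not pass edgeR's test (adjusted p = 0.135). With library size as the only scaling it passed (log2 fold change 0.41, adjusted p = 0.0101).

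Btc (ENSMUSG00000082361.6, chr5:91357261-91402994, minus strand) was counted 70, 53 and 86 times at 0 h and 107, 83 and 96 times at 48 hours. Its CPM of 2.38, 1.71 and 2.59 at 0 h overlapped the 3.18, 2.32 and 2.74 at 48 hours (log2 fold change 0.30, SE 0.230, edgeR adjusted p = 0.326). Betacellulin binds ERBB4 as well as EGFR. Hbegf (ENSMUSG00000024486.6), whose precursor is shed from the cell surface, was counted 19, 32 and 32 times at 0 h and 32, 47 and 48 times at 48 hours. Its CPM of 0.647, 1.03 and 0.964 overlapped the 0.950, 1.31 and 1.37 of 48 hours, since 48 h replicate 1 lay under 2 of the 0 h libraries (log2 fold change 0.46, SE 0.285, edgeR adjusted p = 0.229).

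Egf (ENSMUSG00000028017.7, chr3:129677565-129755316, minus strand), the founding ligand of the family, is made mainly in salivary gland and kidney. It was counted 45, 41 and 41 times at 0 h and 36, 64 and 58 times at 48 hours, or 1.53, 1.32 and 1.23 CPM against 1.07, 1.79 and 1.66 CPM. The groups overlapped, with 48 h replicate 1 the lowest of all 6 libraries (log2 fold change 0.15, SE 0.263, edgeR adjusted p = 0.686). Of the merged exons of Egf, 9.82% overlap genes on the opposite strand, and reads of the 2 strands could not be separated here because the strand setting is not given in the sources used.

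Areg (ENSMUSG00000029378.5, chr5:91139599-91148432, plus strand), a ligand that many cells induce through cAMP and YAP signalling, was barely detected. It had 0, 0 and 1 counts at 0 h and 7, 5 and 9 counts at 48 hours. Every 48 h library lay above the floor of 3 counts and every 0 h library under it. Summed over the libraries this was 1 count against 21, a ratio of 18.8 with an exact 95% interval of 3.03 to 778 that covers counting error only. Areg failed the filter on low counts and was not tested, except with no filter, where edgeR called it higher. Its level at 48 hours, 0.166 CPM per kb, remained far under the 7.21 CPM per kb of Tgfa. The neutrophil markers, also near the floor, summed to at most 0.408 CPM at 0 h and to 0.653 to 1.06 CPM at 48 hours. Of these 9 markers, 7 had 3 counts or fewer in every library, the exceptions being Camp and Elane. The part of these markers in the Areg counts was not tested.

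**Figure D3:**
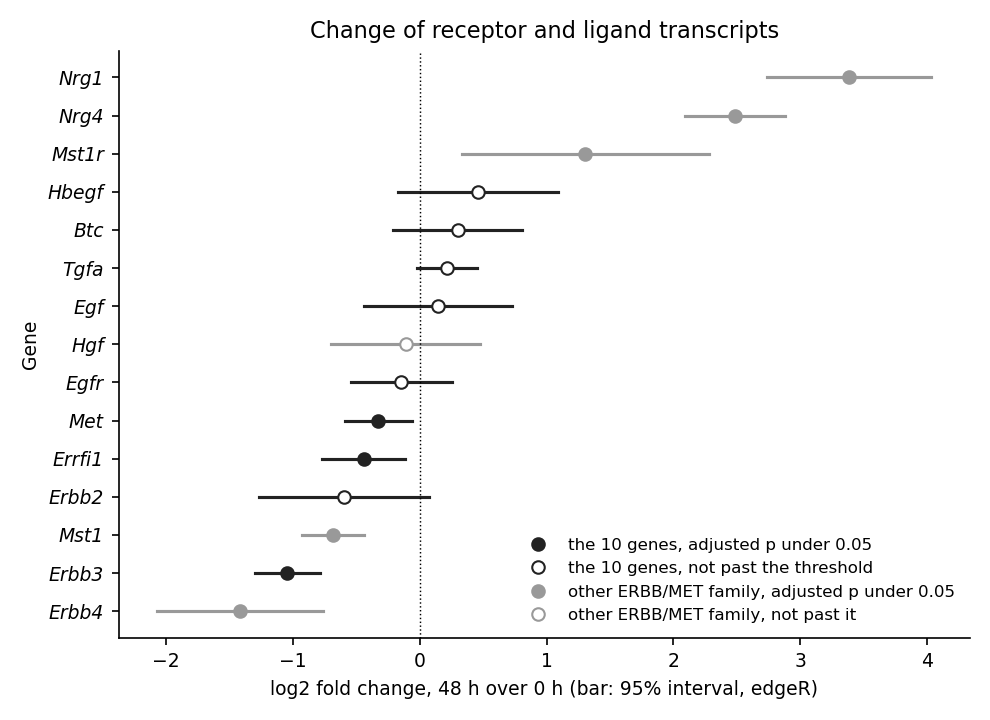
Log2 fold change (48 h against 0 h) of the 9 tested genes (black) and of 6 other receptors and ligands of the ERBB and MET families (grey), with 95% intervals from edgeR's quasi-likelihood test and filled points for an adjusted p under 0.05. The intervals of Erbb3, Errfi1 and Met lie below 0, those of Egfr, Erbb2 and the 4 tested ligands span 0, and Nrg1 (3.38) and Nrg4 (2.49) lie highest.

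The balance between the receptors was compared within each library, as shares of the per-length levels, which do not depend on the scaling between libraries. Egfr made up 76.5%, 80.4% and 70.1% of the summed Egfr, Erbb2 and Erbb3 levels at 0 h and 85.4%, 84.7% and 86.8% at 48 hours. All 3 shares at 48 hours were above those at 0 h (75.7% ± 5.18 against 85.6% ± 1.04, SD, n = 3). The share of Erbb3 was 24.3% ± 5.15 at 0 h and 14.3% ± 1.04 at 48 hours. Erbb2 held 0.0785% ± 0.0266 and 0.0623% ± 0.0146 of the sum, so it was a trace component at both times. Egfr exceeded Erbb3 by 3.26, 4.11 and 2.35 times per length at 0 h and by 5.85, 5.58 and 6.59 times at 48 hours, again without overlap. The ratio of Egfr to Met was 7.17 ± 1.55 and 8.18 ± 0.910 per length (SD, n = 3), and its ranges overlapped. These shares and ratios are descriptions with no test.

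Tgfa was the main ligand transcript at both times. It made up 88.6% ± 1.34 of the per-length sum of the 5 ligands at 0 h and 86.1% ± 0.522 at 48 hours (SD, n = 3). Btc held 7.01% ± 1.40 and 7.25% ± 0.677, Hbegf 1.90%, 3.07% and 2.83% in the 0 h libraries and 3.03% ± 0.728 at 48 hours, and Egf 1.72% ± 0.188 and 1.62% ± 0.534. Areg went from 0.117% ± 0.203 to 1.96% ± 0.403 of the sum, above Egf in 2 of the 3 libraries of 48 hours. With the length of the longest transcript in place of merged exons this order turned, with 1.38% for Areg and 2.696% for Egf at 48 hours. The 5 ligands together came to 7.02 ± 0.0638 CPM per kb at 0 h and 8.36 ± 0.852 CPM per kb at 48 hours. Egfr was 23.1 ± 5.26 times as abundant per length as its 5 ligands together at 0 h and 17.6 ± 1.14 times at 48 hours, with overlapping ranges. Errfi1 exceeded Egfr 3.25 ± 1.02 times per length at 0 h and 2.53 ± 0.209 times at 48 hours, also with overlap.

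Of the 10 other receptors and ligands of the 2 families, 6 were tested, 3 were higher and 2 lower at 48 hours (21.4% and 19.3% of all genes), with a median log2 fold change of 0.60 against -0.00325 over all genes tested. Both neuregulins that were tested rose. Nrg4, a neuregulin that signals through ERBB4, had 6.20, 6.80 and 6.47 CPM at 0 h and 46.7, 33.8 and 28.6 CPM at 48 hours (log2 fold change 2.49, SE 0.178, edgeR adjusted p = 2.8e-06). Nrg1, the ligand of ERBB3 and ERBB4, had 0.613, 0.677 and 0.512 CPM at 0 h and 8.43, 4.39 and 6.05 CPM at 48 hours (log2 fold change 3.38, SE 0.292, edgeR adjusted p = 1.14e-05). In both genes the groups were far apart. Opposite-strand genes overlap 8.97% of the merged exons of Nrg4 and 4.66% of those of Nrg1.

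Erbb4, the remaining receptor of the family, fell from 12.9, 20.7 and 18.8 CPM to 3.41, 7.78 and 8.45 CPM (log2 fold change -1.42, SE 0.295, edgeR adjusted p = 0.00335), so both neuregulin receptors were lower where both tested neuregulins were higher. The ratio of Erbb3 to Nrg4 per length was 51.3, 41.9 and 48.8 at 0 h and 3.33, 4.49 and 4.83 at 48 hours, a wide gap between the groups. Nrg4 is not the ERBB3 ligand named above, so this ratio is no balance of a receptor and its own ligand. Levels of Erbb3, Erbb4 and Nrg4 per length were 50.4, 1.42 and 1.07 CPM per kb at 0 h and 24.5, 0.530 and 5.99 CPM per kb at 48 hours. Nrg1 had 0.0580 CPM per kb at 0 h and 0.608 CPM per kb at 48 hours. Ereg, Epgn and Nrg3 had 3 counts or fewer in every library. The summed levels of the Kupffer cell markers overlapped between the groups (82.6 to 124 CPM at 0 h, 119 to 146 CPM at 48 hours), those of the endothelial markers were lower at 48 hours (232 to 360 CPM against 168 to 185 CPM), and their part in these values was not tested.

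**Figure D4:**
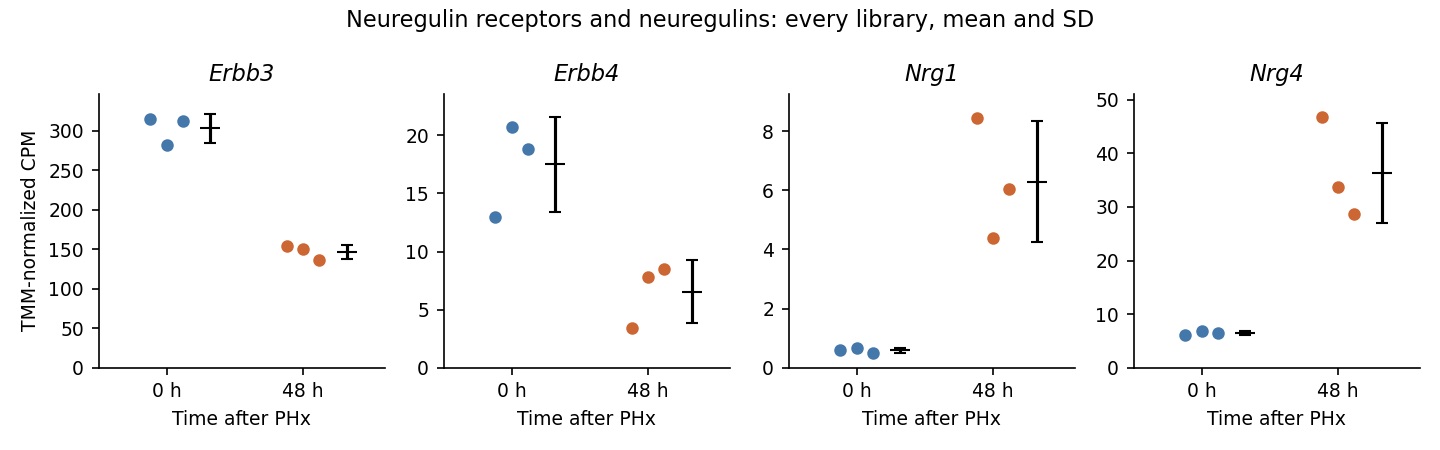
Level of the neuregulin receptors Erbb3 and Erbb4 and the neuregulins Nrg1 and Nrg4 in each library (TMM-normalized CPM, linear axes from 0 that differ between panels), with points for libraries and, beside them, each group's mean and SD. Both receptors are lower and both ligands higher at 48 hours in all 3 libraries, with Nrg4 between 28.6 and 46.7 CPM against 6.20 to 6.80 CPM at 0 h.

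On the side of MET, Hgf had 3.34, 7.60 and 6.08 CPM at 0 h and 4.45, 5.96 and 5.37 CPM at 48 hours, overlapping values (log2 fold change -0.11, SE 0.265, edgeR adjusted p = 0.766). The summed stellate cell markers, from the cells best known for making HGF, were 76.7 to 124 CPM and 68.5 to 82.0 CPM. Mst1, which encodes the HGF-like ligand macrophage-stimulating protein, fell from a mean of 129 to 80.5 CPM (log2 fold change -0.68, SE 0.108, edgeR adjusted p = 0.000651). Its receptor Mst1r, a relative of MET, rose from 0.308 to 0.772 CPM on average (log2 fold change 1.30, SE 0.439, edgeR adjusted p = 0.0363), a call that was lost in 6 of 14 alternatives. It was lost in limma-voom, without any of the 3 libraries of 0 h, and without 48 h replicate 1 or 3, with adjusted p up to 0.121.

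Of 12 genes of ligand release and HGF activation, with the protease inhibitor genes Spint1 and Spint2 among them, 9 were tested, 2 were higher and 2 lower (21.4% and 19.3% of all genes), shares near those of all genes, with a median log2 fold change of 0.30. Hgfac, the plasma protease that cleaves HGF into its active form, fell from 236 to 88.1 CPM (log2 fold change -1.42, SE 0.105, edgeR adjusted p = 3.61e-06). Hpn (hepsin), a membrane protease that can also activate HGF, fell from 455 to 322 CPM (log2 fold change -0.50, edgeR adjusted p = 0.00699), a call lost with library size as the only scaling (adjusted p = 0.0910). Rhbdf1 (iRhom1), a partner of ADAM17, rose from 5.37 to 11.6 CPM (log2 fold change 1.11, edgeR adjusted p = 0.00198), and Adam10 rose from 40.9 to 53.0 CPM (log2 fold change 0.38, edgeR adjusted p = 0.0448), a call kept in only 5 of 15 alternatives (adjusted p up to 0.151). Adam17 itself, the main sheddase of Tgfa, Hbegf and Areg, had a log2 fold change of 0.30 (edgeR adjusted p = 0.0766). With library size only, 6 of the list were higher and 1 lower.

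The adaptor list holds 14 genes of signalling from the receptors, with enzymes such as Plcg1 and the PI3K genes among them. All 14 were tested, 5 were higher and 0 lower (21.4% and 19.3% of all genes), with a median log2 fold change of 0.12. The leading genes were Ptpn11, the phosphatase SHP2 needed for full ERK activation, with a log2 fold change of 0.50 (SE 0.111, edgeR adjusted p = 0.00488), Crk with 0.48 (adjusted p = 0.00251) and Nck1 with 0.47 (adjusted p = 0.0108). Grb2, the adaptor that carries SOS to the receptor, rose by 0.40 (adjusted p = 0.0397) and Crkl by 0.32 (adjusted p = 0.0436), calls kept in 9 and 4 of 15 alternatives (adjusted p up to 0.105 and 0.168). Sos1, Gab1, Pik3ca and Pik3r1 had log2 fold changes of -0.12 to 0.01 and did not pass. At an unadjusted p under 0.05, 6 genes of the list were higher and 1 lower. The alternatives gave 3 to 7 higher and at most 1 lower, apart from a required log2 fold change of 1 or more, under which 0 were higher.

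Of 13 genes of the RAS-RAF-MEK-ERK cascade, all were tested, 4 were higher and 1 lower (21.4% and 19.3% of all genes), with a median log2 fold change of -0.02. Without 0 h replicate 2, or with upper-quartile scaling, 2 were lower. Hras rose from 15.7 to 33.3 CPM (log2 fold change 1.08, SE 0.137, edgeR adjusted p = 0.000151) and Nras by 0.56 on the log2 scale (adjusted p = 0.00116). The ERK1 gene Mapk3 rose by 0.63 (adjusted p = 0.00229). Araf fell from 104 to 64.9 CPM (log2 fold change -0.69, SE 0.104, edgeR adjusted p = 0.000492), and Braf, Map2k1 and Map2k2 did not pass.

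Of 19 genes that lower receptor levels or damp the pathway, the group to which Errfi1 is closest in role, all were tested, 4 were higher and 4 lower (21.4% and 19.3% of all genes), shares near those of all genes, with a median log2 fold change of -0.17. With library size only, 7 were higher and 2 lower. Spry4, a Sprouty inhibitor of RAS-ERK signalling, fell from 18.0 to 6.55 CPM (log2 fold change -1.46, SE 0.150, edgeR adjusted p = 3.79e-05), more than Errfi1. Dusp5, a nuclear ERK phosphatase, rose from 1.07 to 3.07 CPM (log2 fold change 1.51, SE 0.240, edgeR adjusted p = 0.000641) and Spred1 by 0.94 (adjusted p = 0.000406). Ptpn1, a phosphatase of EGFR, rose by 0.89 (adjusted p = 6.23e-05) and Cbl, the ubiquitin ligase that sends EGFR to degradation, by 0.42 (adjusted p = 0.0127). Ptprj, Spred2 and Lrig1 fell by 0.66, 0.50 and 0.47 on the log2 scale (edgeR adjusted p = 0.0012, 0.0129 and 0.0152). The calls of Lrig1, Cbl and Spred2 were kept in 12, 13 and 14 of 15 alternatives, and that of Ptprj in all 15.

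Of 10 transcripts known to respond to ERK, 9 were tested, 2 were higher and 2 lower (21.4% and 19.3% of all genes), shares near those of all genes, with a median log2 fold change of 0.20, and Spry4 is in this list as well. Ccnd1, the cyclin D1 gene, rose from 19.7 to 209.9 CPM (log2 fold change 3.41, SE 0.127, edgeR adjusted p = 4.11e-08), and Epha2 by 0.58 (adjusted p = 0.00644). Phlda1 fell from 53.6 to 28.5 CPM (log2 fold change -0.91, SE 0.317, edgeR adjusted p = 0.0415), a call lost in 6 alternatives: DESeq2, library size only, and without 0 h replicate 1 or 3 or 48 h replicate 1 or 2, with adjusted p up to 0.168. Dusp6, Etv5, Etv4, Dusp4 and Spry2 did not pass. Opposite-strand genes overlap 23.4% of the merged exons of Ccnd1, 33.0% of those of Phlda1 and 22.1% of those of Dusp5.

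**Figure D5:**
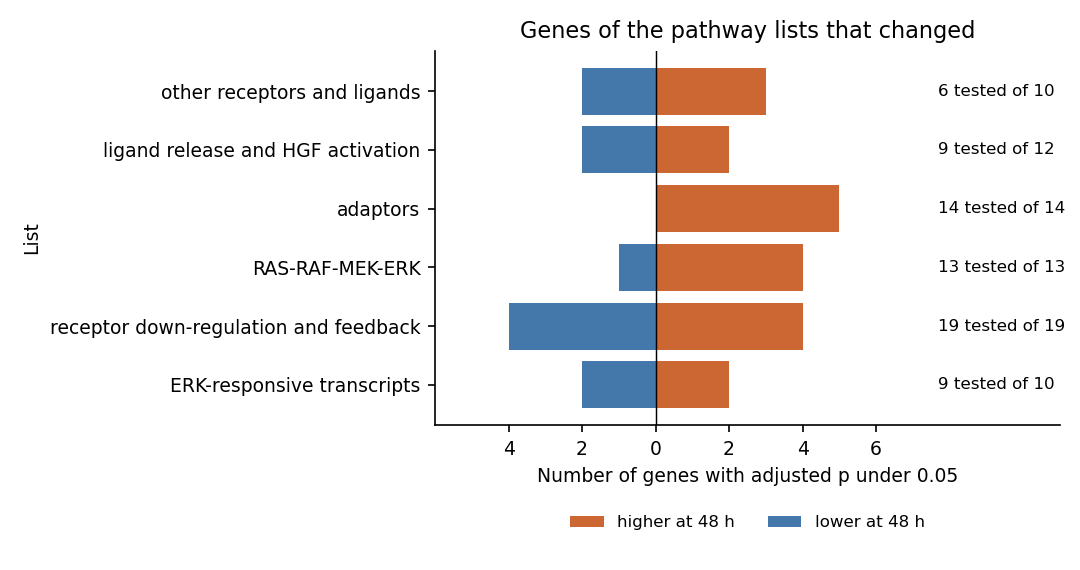
Number of genes of each pathway list called higher (right) or lower (left) at 48 hours with an adjusted p under 0.05 in edgeR's test, with the number tested of each list at the right edge. The adaptor list has 5 higher and 0 lower, and genes of receptor down-regulation and feedback 4 in each direction.

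The genes whose log2 CPM followed Egfr and Met most closely over the 6 libraries were sought among 13330 named genes whose mean reached 1 CPM. For Egfr these were Gm10069 (Pearson's r = 0.980), Gm10138 (0.979) and B4galt3 (0.977), none of which passed edgeR's test between the groups. For Met they were Zfp182 (0.999), Chd9 (0.997) and Dsc2 (0.996), of which Zfp182 and Dsc2 were lower at 48 hours (adjusted p = 0.0201 and 0.0170). The libraries share their scaling and fall into 2 groups, and with 6 points and so many genes such values are descriptions only.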

How the data were processed

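RNA-Seq libraries of hepatocytes from undamaged liver (n = 3) and from liver 48 hours after PHx (n = 3) were analysed. The authors deposited raw counts of reads per gene, without normalization. The submitters' processing notes name FastQC 0.11.5, Trim Galore 0.6.4, STAR 2.6, HTSeq 0.12.4, DESeq2 and the build mm10. The strand setting and the treatment of overlapping genes are not given in the sources used here. Closing lines for reads on no feature (24.3% to 32.7% of the reads listed) and ambiguous reads (4.27% to 5.29%) were left out. All 55450 gene identifiers matched GENCODE M21 (GRCm38), which supplied names, coordinates and merged exon lengths. RefSeq promoter windows were found for 8 of the 10 genes.

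A gene was tested where 3 or more libraries had 10 or more counts, with edgeR 4.0.16 (R 4.3.3) by the quasi-likelihood test with TMM factors and time as the only term. P-values were adjusted over all 17037 genes by the Benjamini-Hochberg method (threshold 0.05). The standard error is the size of the log2 fold change divided by the square root of F. The fit was tested on simulated data first. Alternatives were DESeq2 1.42.0, limma-voom (limma 3.58.1), other scalings, other filters, a log2 fold change of at least 1, the replicate number as a block, and leaving out each library. Groups and replicate numbers came from the labels. Libraries of the same group differed by more than counting noise.

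The 10 genes and the lists were chosen with earlier results of these data known. From each other list the 3 genes with the largest change among those that passed with a mean of at least 1 CPM are named. Other list genes, Hgf and its relatives among them, were named after their values were seen. Some genes of the lists are not reported here by name.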

Additional observations from a re-analysis of the deposited data

How the results depend on the processing

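Erbb3 was lower and past the threshold in all 15 alternatives, while Errfi1 kept its call in 9 of 15 and Met in 7 of 15, both with the lower direction in each. The number of the tested genes called lower, 3, was 1 with library size as the only scaling, 1 with the replicate block (adjusted p = 0.0785 for Met and 0.0806 for Errfi1 in edgeR), 1 with a log2 fold change of at least 1 required, and 1 to 2 when a library was left out. The number called higher, 0, was 1 with library size only (Tgfa) and 1 with no filter on low counts (Areg), and the cause was not tested. The log2 fold change of Egfr, -0.15, turned to 0.052 with library size only (adjusted p = 0.849 in edgeR). Over all genes, a required log2 fold change of 1 or more kept 1651 higher and 1353 lower, and library size only gave 5308 higher and 2110 lower (71.6% of calls higher, against 52.5% with TMM). The majority turned to lower with upper-quartile scaling (3142 higher and 3924 lower) and with TMM factors from protein-coding genes (3337 and 3710). Over the alternatives other than the fold threshold, genes of ligand release and HGF activation were called higher in 1 to 6 cases and lower in 1 to 2, adaptors higher in 3 to 7, RAS-RAF-MEK-ERK genes higher in 4 to 6 and lower in 1 to 2, genes of receptor down-regulation and feedback higher in 3 to 7 and lower in 2 to 5, and ERK-responsive genes lower in 1 to 2. Same-numbered libraries come from different mice, their deviations from the group means correlated by 0.0335, -0.0674 and -0.138, and 2 of 6 libraries correlated best with their own number, so the numbers do not pair the samples. The replicate block gave 3237 genes higher and 2884 lower. With 3 libraries a group and few counts on Erbb2, Hbegf, Btc, Egf and Areg, small changes of these genes were not detectable at this depth.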
